A study of Mus musculus with 15 samples.

Results

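Cells labelled as eosinophils of the colon wall were set against cells labelled as eosinophils of the bone marrow of the same 4 mice. The comparison took all genes of a table of raw counts. The 8 libraries, 4 of colon and 4 of bone marrow, are those of mice 5, 6, 7 and 8 among the 15 libraries of the series, and were taken by the tissue and mouse named in their labels. The mice were C57/BL6 wild-type animals that had all received 4-NQO, a carcinogen that damages the squamous lining of mouth and esophagus, for 8 weeks and propylene glycol for another 8 weeks, which ended in a state labelled pre-cancer. Neither tissue has an untreated library, so both agents are shared by both sides of the comparison. Mice 5 and 6 were of cage 1 and labelled F, and mice 7 and 8 of cage 2 and labelled M, so that sex and cage cannot be told apart. Colonic cells were picked from the lamina propria with immunomagnetic beads, whereas the other cells are called bone marrow-derived in the design text and extracted from marrow in the protocol, with no selection step or culture named. A kit for small inputs, the Ovation RNA-Seq System V2, amplified the RNA before an NEB library kit was used. The age of the mice is not given.

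Eosinophils are granulocytes that arise in the bone marrow under interleukin 5 and the factors GATA1, C/EBPε and PU.1, which switch on their toxic granule proteins. They leave the marrow as cells that no longer divide, and the gut lamina propria is one of the tissues that holds them in health, drawn by eotaxin through the receptor CCR3. In the gut they persist longer than in blood and carry surface molecules and signals of a tissue-resident state, such as CD80, PD-L1 and the aryl hydrocarbon receptor. By its labels, a comparison of colon with marrow therefore sets the resident end of this route against its source. That the cells of either side were at these stages was not tested.

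Depth was low in all 8 libraries. Total counts were 519668, 227179, 555689 and 612386 in colon of mice 5, 6, 7 and 8, and 189336, 189060, 286166 and 246842 in bone marrow. A gene with no count could have up to 3 counts, which is 4.90 to 15.9 CPM, the count scaled to a common library total. The table lists 26366 genes, of which 26313 had a count in these libraries and 8491 passed the filter on low counts. The counts of a gene rose with its exonic length in every library, with Spearman correlations of 0.665 to 0.848 across genes. Receptor genes of the olfactory and vomeronasal families, which are tied to sensory neurons, were set against other protein-coding genes of the autosomes. The 1% of genes with the highest counts in a library were left out on both sides. Among the genes kept, the receptor genes held 1.24 to 2.10 times as many counts per kilobase of exon. The ratio with the most abundant genes included was not computed. The colon library of mouse 8 stood apart from the other 3 colon libraries in several measures given below.

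The labelled cell type was checked first against genes that define eosinophils, and these were scarce in both tissues. Epx, the eosinophil peroxidase of the granule, had 3, 0, 9 and 4 counts in colon of mice 5 to 8 and 3, 5, 3 and 2 in bone marrow. The gene of major basic protein, Prg2, had 1 count in all, in colon of mouse 7, and its 0 in each bone marrow library allows up to 10.5 to 15.9 CPM. Of the 9 granule genes in the table, none passed the filter, and their summed level was 66.0 to 82.8 CPM of the library total in colon against 52.4 to 153 in bone marrow. Siglecf, the surface lectin used to recognise mouse eosinophils, had 7, 2, 13 and 7 counts in colon against 0, 2, 1 and 6 in bone marrow. The lineage factors Gata1, Cebpe and Spi1 had 0 to 14 counts in any library. At this depth the granule genes and Siglecf could not be compared between the tissues. The same libraries gave Itgam 3921, 3450, 2695 and 3238 counts in bone marrow, and Nopchap1 3127, 1203, 3218 and 3133 in colon. These counts are not corrected for exonic length, which is 123179 bases for Nopchap1. Granule genes and Siglecf thus did not bear out the labelled cell type in either tissue. Why they were scarce was not tested.

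Of the 12 eosinophil surface genes, 6 were deep enough to be tested, and none passed the test. Tests here and below are edgeR's quasi-likelihood test with mouse as a block, with calls made where the p adjusted by Benjamini and Hochberg's method across the 8491 genes was under 0.05, and levels of tested genes are normalised CPM, scaled for library composition. Ccr3, the eotaxin receptor, had 40.7, 82.4, 62.9 and 76.5 normalised CPM in colon of mice 5 to 8 and 67.5, 80.4, 4.64 and 22.3 in bone marrow. The groups overlapped, the log2 fold change was 0.89 (SE 0.65, adjusted p = 0.808), and colon was the higher library in mice 6, 7 and 8. Il1rl1, the receptor for interleukin 33, was at 76.4 ± 9.09 normalised CPM (SD, n = 4) in colon against 141 ± 62.9 in bone marrow (log2 fold change -0.77, SE 0.41, adjusted p = 0.677). Csf2rb, the signalling chain shared by the receptors for interleukin 3, interleukin 5 and GM-CSF, was at 92.8 ± 24.7 and 99.9 ± 35.7. Fcgr2b, the inhibitory IgG receptor, Pirb and Cd244a had log2 fold changes of -0.61 (SE 0.43), -0.13 (SE 0.65) and -0.02 (SE 0.66). The median over the 6 genes was -0.11, against 0.04 over all genes tested. In bulk samples, fewer cells of a type and less RNA per cell cannot be told apart, here and in what follows.

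**Figure D1:**
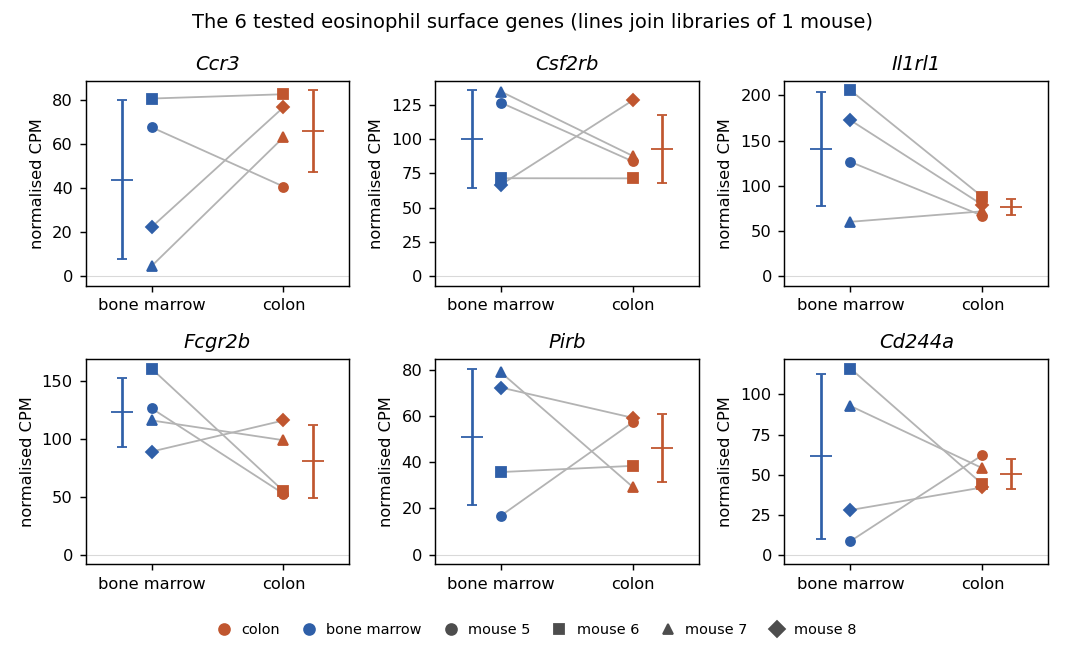
Normalised CPM of the 6 tested eosinophil surface genes in bone marrow and colon libraries of mice 5 to 8; each point is a library, grey lines join the libraries of a mouse, and bars give the mean ± SD of the 4 libraries of a tissue. The tissues overlap in each gene, as for Ccr3 at 40.7 to 82.4 in colon against 4.64 to 80.4 in bone marrow.

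Most genes that differed were lower in colon. In colon 138 genes (1.63% of the 8491 tested) were lower and 6 (0.0707%) were higher than in bone marrow, 1.7% in either direction. At an unadjusted p under 0.05 there were 430 lower and 256 higher genes. Fold changes of the lower genes were large, with a median log2 fold change of -2.95 and a range of -9.37 to -1.20, and 35 of them were below -4. Of the 138, 137 were lower in colon in all 4 mice, and in 133 all colon libraries were below all those of bone marrow, as was so for 4.04% of all genes tested. The calls came from these same libraries, so this agreement follows in part from the selection. Of the 138, 122 were protein coding. Per library, the 138 genes together took 1.08%, 0.858%, 0.796% and 0.648% of all counts in colon of mice 5 to 8, and 17.1%, 23.3%, 5.82% and 8.60% in bone marrow. Leaving out mouse 5 brought the lower genes to 87 and the higher to 0, leaving out mouse 8 gave 150 and 4, and a fit without the mouse block gave 136 and 3. When limma voom took mouse as a random effect, 43 genes were lower and none higher (529 and 167 at an unadjusted p under 0.05), and none of the 13 most changed lower genes described below passed, Itgam having an adjusted p of 0.159.

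The gene with the largest fall was Itgam (ENSMUSG00000030786.19), which encodes the integrin chain CD11b that myeloid cells use to adhere and take up opsonised particles. It had 90.9, 22.0, 22.5 and 19.7 normalised CPM in colon of mice 5 to 8 and 33070, 30837, 12509 and 18024 in bone marrow. Raw counts were 38, 4, 10 and 8 against 3921, 3450, 2695 and 3238, with a wide gap between the tissues. The log2 fold change was -9.37 (SE 1.17, adjusted p = 9.31e-06). In bone marrow, Itgam took 2.07%, 1.82%, 0.942% and 1.31% of all counts of a library. Itgb2, the chain with which CD11b pairs at the surface, did not pass the filter, with 6, 1, 11 and 8 counts in colon against 0, 4, 5 and 3 in bone marrow. Itgax, Itgal, Itgb1 and Itgb7, other chains of leukocyte integrins, were also too low to test, and Itga4 was at 133 ± 19 normalised CPM in colon against 130 ± 29.5 in bone marrow (log2 fold change 0.06, SE 0.35).

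Among the 8 tested genes of integrins and adhesion, 2 fell and none rose, where 1.63% of all tested genes were lower. Beside Itgam this was Pecam1, an adhesion molecule of endothelium and leukocytes. Pecam1 had 93.3, 54.9, 58.4 and 49.4 normalised CPM in colon against 1788, 2315, 794 and 1052 in bone marrow (log2 fold change -4.41, SE 0.42, adjusted p = 2.10e-07). The tissues did not overlap. Icam1, Selplg, Cd44 and Vcam1, which mediate rolling and arrest of leukocytes, did not pass the test, with log2 fold changes of -0.96 to -0.02. Since Pecam1 also marks endothelium, that list stands beside it: all 10 of its genes had counts, 4 were tested, 1 (Pecam1) was called, and Vwf, Kdr and Emcn had log2 fold changes of 0.21, -0.29 and 0.32.

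Of other chemokine receptors, Ccr2, which draws monocytes, was at 106 ± 19.3 in colon against 137 ± 96.5 in bone marrow (log2 fold change -0.12, SE 0.43), and the gut-homing receptor Ccr9 at 142 ± 41.6 and 148 ± 60.01. Neither passed the test.

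Trim12c belongs to a cluster of TRIM genes around Trim5 whose proteins sense viral capsids, and whose close relatives may share reads. It had 218, 49.4, 65.2 and 42.0 normalised CPM in colon against 33054, 53674, 8550 and 12546 in bone marrow (log2 fold change -8.04, SE 1.18, adjusted p = 7.39e-05). Of the 6 tested genes of that family, Trim5 also fell, from 260 ± 84.3 to 41.7 ± 23.5 (log2 fold change -2.76, SE 0.38, adjusted p = 3.72e-05). Its neighbours Trim12a and Trim30b did not pass the test, at -0.18 (SE 0.45) and 0.27 (SE 0.42) on the log2 scale. Of all tested genes, 1.63% were lower.

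Among lower genes that encode enzymes was Cyp11a1, which cuts the cholesterol side chain in the first step of steroid synthesis. It had 9.57, 54.9, 36.0 and 66.6 normalised CPM in colon against 12213, 6462, 2558 and 3930 in bone marrow (log2 fold change -7.04, SE 0.85, adjusted p = 6.04e-06). The tissues were separated by a wide gap. Of 5 tested genes of proline and one-carbon metabolism 2 fell, Pycr1, which makes proline (-5.06, SE 0.52, adjusted p = 1.38e-06), and Amt, the aminomethyltransferase of the glycine cleavage system (-2.96, SE 0.44, adjusted p = 9.76e-05), against 1.63% of all tested genes. The other 3 were above 0 without passing the test, and the median of the 5 was 0.35.

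Others act in the nucleus. Ddx23, an RNA helicase of the spliceosome, had 122, 27.5, 53.9 and 24.7 normalised CPM in colon against 8788, 17108, 2028 and 3256 in bone marrow (log2 fold change -6.75, SE 0.85, adjusted p = 1.07e-05). The other 12 tested genes of the spliceosome list did not pass the test, and Ddx50, Srsf3 and Sf3b1, the most abundant of them, were at 0.51, -0.01 and -0.37 on the log2 scale. Tor1aip1, which anchors torsin to the inner nuclear membrane, had 62.2, 27.5, 47.2 and 83.9 in colon against 8459, 17850, 1536 and 1937 in bone marrow (-6.30, SE 0.89, adjusted p = 4.72e-05). It was the 1 called gene among 8 tested for the nuclear lamina. Cenpc1, the inner centromere protein CENP-C, fell from 2918 ± 1515 to 52.5 ± 13.4 (-5.65, SE 0.55, adjusted p = 2.60e-07), and the other 8 tested centromere and kinetochore genes did not pass. In each of these lists 1 gene was lower, beside 1.63% of all tested genes.

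The other named lower genes were of mixed classes. Tbata (-6.71), Rhox8 (-6.44), Fhl3 (-6.37), AW822252 (-5.97), AA465934 (-5.54), Sh3bgr (-5.30) and Ghdc (-5.18) are given with their log2 fold changes, with adjusted p of 1.24e-08 to 9.74e-05. Rhox8 is a homeobox gene of the reproductive tract cluster on chromosome X, Fhl3 a LIM-domain protein of muscle, AW822252 an annotated pseudogene and AA465934 a noncoding transcript. Sh3bgr had 0, 0, 5 and 0 counts in colon against 23, 20, 25 and 12 in bone marrow.

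**Figure D2:**
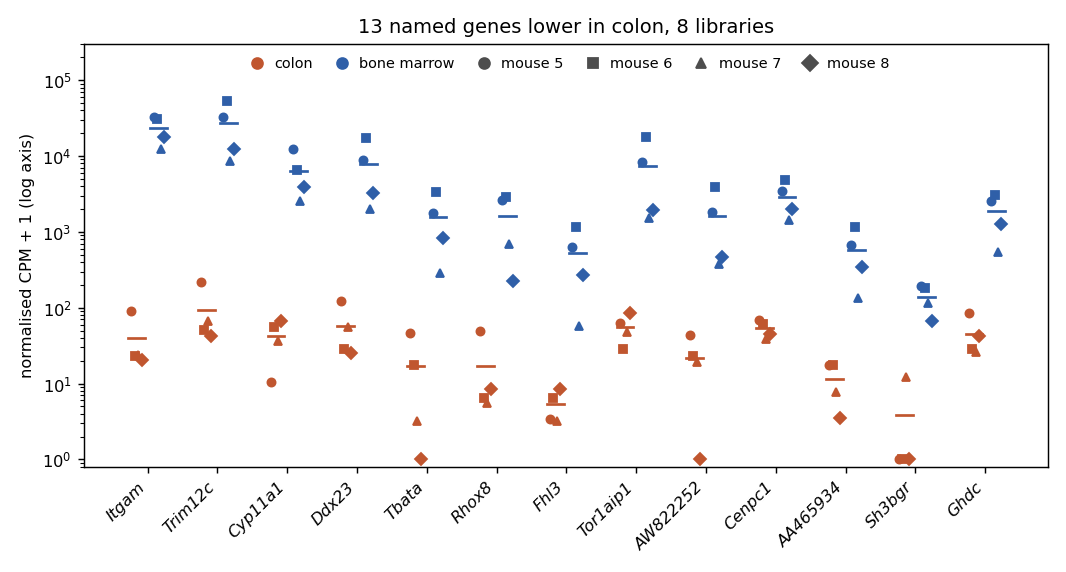
Normalised CPM plus 1 on a log axis of 13 named genes lower in colon; each point is a library, its shape the mouse and its colour the tissue, and horizontal lines are the means of 4 libraries. No colon point reaches a bone marrow point of the same gene, and for Itgam the highest colon library is at 90.9 against 12509 in the lowest bone marrow library.

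Of 14 genes of activated tissue eosinophils in the table, 5 were tested and 1 fell, where 1.63% of all tested genes did. It was Cd300lf, an inhibitory receptor of myeloid cells, which fell from 723 ± 388 to 73.4 ± 14.8 normalised CPM (log2 fold change -3.15, SE 0.33, adjusted p = 9.54e-07). Cd274, which encodes PD-L1, was at -0.83 (SE 0.55), Vegfa at -0.76 (SE 0.46) and Ahr, the aryl hydrocarbon receptor, at 0.61 (SE 0.47), none of them past the test. Among genes of B and plasma cells 1 of 4 fell, against 1.63% of all tested genes, the early B-cell factor Ebf1 (-2.99, SE 0.40, adjusted p = 2.23e-05), whereas Ms4a1 and Pax5 were at 0.61 (SE 0.44) and -0.52 (SE 0.43).

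What most of the 138 genes shared was a feature of their transcripts. Each transcript of the GENCODE M21 annotation was searched for its longest unbroken run of purines (A or G alone) or of pyrimidines (C or T alone). A run of at least 30 bases was found in 131 of the 138 lower genes (94.9%) and in 2545 of 8477 tested genes with a transcript there (30.02%). The median longest run was 77.5 bases in the lower genes and 22 bases in all tested genes. A run of a single base, A or T, of at least 25 bases was found in 54 of the 138 (39.1%) against 413 of the tested genes (4.87%). Runs of the same length in other letter pairs were less unevenly spread: runs of A or C, or of G or T, were in 54.3% against 39.1%, and runs of A or T, or of G or C, in 40.6% against 15.2%.

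The share of genes called lower rose with the length of the run. It was 0.128% (4 of 3125) for runs under 20 bases, 0.107% (3 of 2807) for 20 to 29, 2.52% (25 of 994) for 30 to 39, 2.78% (21 of 755) for 40 to 59, 6.45% (34 of 527) for 60 to 99 and 19% (51 of 269) for 100 or more. Over all tested genes, the median log2 fold change went from 0.11 in the first class to -0.52 in the last. The lower genes were not the longer ones, at a median exonic length of 5352 bases against 6505 for all tested. Among tested genes of 3269 to 7878 exonic bases, the middle of the lower genes with a run, 65 of 1255 with a run of 30 bases were lower (5.18%) and 2 of 3776 without one (0.0530%). The cause of this pattern was not tested.

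**Figure D3:**
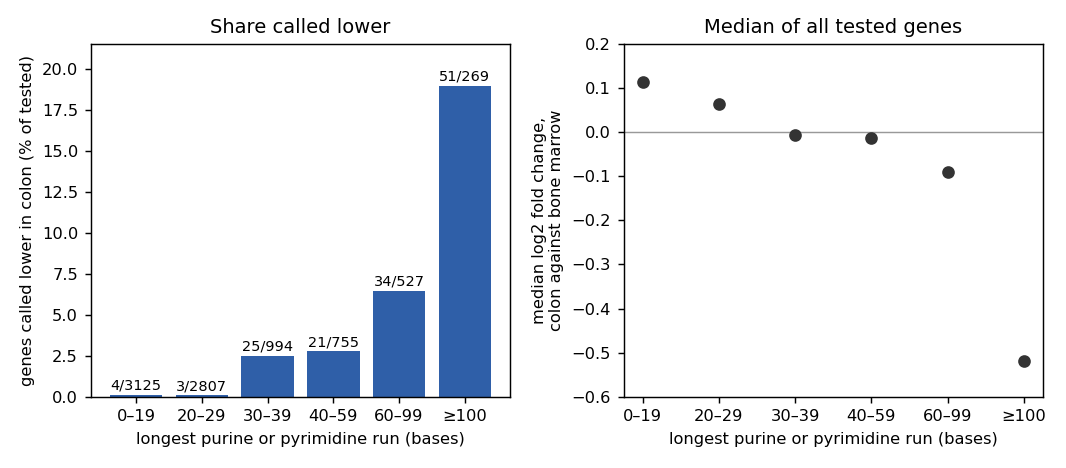
Left, percentage of tested genes called lower in colon by the length in bases of the longest purine or pyrimidine run, with called and tested genes above each bar; right, median log2 fold change in the same classes over all tested genes. The share goes from 0.128% under 20 bases to 19% at 100 or more, and the median from 0.11 to -0.52.

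In 68 of the 131 genes the longest run lay in the 3′ UTR, in 9 in the 5′ UTR, in 4 in coding sequence and in 50 in a noncoding transcript of the gene, often one with a retained intron. Of the most strongly changed genes, Itgam has a run of 89 bases, Trim12c of 141 in the 3′ UTR, and Ddx23 has a 3′ UTR run of a single base, of 40 bases. Runs of 4 named lower genes outside UTRs are shown to let their composition be seen, as GENCODE M21 gives them 5′ to 3′ in the sense of the transcript, with 8 bases before the run in lower case and up to 60 bases of the run in capitals. Cyp11a1 (chromosome 9, run of 66 bases) and Rsu1 (chromosome 2, 129) hold purine repeats in transcripts annotated as retaining an intron. Tor1aip1 (chromosome 1, 37) holds a run of A with 1 G, and AA465934 (chromosome 11, 37) a run of T with 1 C.
Cyp11a1: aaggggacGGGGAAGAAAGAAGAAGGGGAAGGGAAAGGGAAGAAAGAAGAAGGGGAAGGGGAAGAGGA
Rsu1: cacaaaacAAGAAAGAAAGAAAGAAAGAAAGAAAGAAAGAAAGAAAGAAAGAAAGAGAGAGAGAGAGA
Tor1aip1: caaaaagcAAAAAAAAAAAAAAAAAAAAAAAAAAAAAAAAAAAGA
AA465934: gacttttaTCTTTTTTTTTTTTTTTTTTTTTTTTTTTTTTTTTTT

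Lower genes without a run of 30 bases were few and changed less. They were Srpk1, a kinase of splicing factors (log2 fold change -2.59, SE 0.47, adjusted p = 0.00109), Gas2l1 (-2.24), Foxo6 (-2.22), Actb, the cytoskeletal actin (-2.20, SE 0.39, adjusted p = 0.000938), 5430431A17Rik (-2.01), Fignl2 (-2.0) and Cox14 (-1.62). Srpk1, Actb and 5430431A17Rik hold single-base runs of 28, 29 and 28 bases, just under the limit. Actb had 55.0, 38.4, 38.2 and 42.0 normalised CPM in colon against 329, 322, 135 and 117 in bone marrow, with no overlap. When all genes with a run of 30 bases were left out before the fit, 2 of 5876 genes were lower, Srpk1 and Actb, and none was higher, with 160 lower and 164 higher at an unadjusted p under 0.05. The other 5 lower genes without a run kept their size in that fit and lost only the call, with log2 fold changes of -2.28 for Gas2l1, -2.26 for Foxo6, -2.05 for 5430431A17Rik, -2.03 for Fignl2 and -1.65 for Cox14 at adjusted p of 0.0518 to 0.234. Of the higher genes, Tmem168, ND3 and Slc30a4 were at 2.01, 2.08 and 1.75, with adjusted p of 0.0935 to 0.392. When those with a run of 20 bases were left out, none of 3054 genes was called, with 81 lower and 84 higher unadjusted. DESeq2 was not run on these reduced tables. Both searches were added after the data were seen.

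Bone marrow libraries differed among themselves in these genes more than colon libraries did. The median of the 138 genes was 616, 791, 237 and 334 normalised CPM in bone marrow of mice 5, 6, 7 and 8, and 81.3, 60.4, 57.3 and 53.1 in colon. Mouse 6 gave the highest bone marrow library for 100 of the 138 genes and mouse 5 for 32, while mouse 8 gave it for 5 and mouse 7 for 1. Of the 54 genes with a single-base run, mouse 6 was highest in 51, and of the 80 other genes with a run of 30 bases in 47. All genes with a run of 30 bases, tested or not, held 40.6%, 46.0%, 31.7% and 33.8% of the counts of bone marrow libraries. In colon libraries they held 27.9%, 28.1%, 27.5% and 24.3%, so that every bone marrow library lay above every colon library. This set includes 131 of the 138 lower genes, so its separation is not independent of those calls. The 138 genes alone held 17.1%, 23.3%, 5.82% and 8.60% of counts in bone marrow and 1.08%, 0.858%, 0.796% and 0.648% in colon. Shares of the remaining genes with a run were not compared.

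Mice 5 and 6, whose marrow libraries were high, share a cage and a sex label, and the tissue effect was therefore compared between cages. In a test of tissue by cage, 5 genes (0.0589% of those tested) differed, all with a higher signed log2 fold change, colon minus bone marrow, in cage 2. For a gene lower in colon in both cages, this is a smaller fall in cage 2 than in cage 1. Eml5 had 93.3 and 93.4 normalised CPM in colon of cage 1 and 101 and 148 in colon of cage 2, against 1974 and 4031 and then 381 and 434 in bone marrow. The log2 difference between cages was 3.16 (adjusted p = 0.0251). P4ha2, a collagen prolyl hydroxylase (3.34, adjusted p = 0.0468), had the same pattern of high marrow libraries in cage 1, and these genes hold runs of 87 and 189 bases. For Eef1a1, the translation elongation factor (5.34, adjusted p = 0.00188), and Acat1, a mitochondrial thiolase (4.39, adjusted p = 0.0251), the colon library of mouse 8 stood out, with 886 and 659 normalised CPM against 14.3 to 50.2 in the other colon libraries. The calls did not hold when mice were left out, as none was made without mouse 5 or mouse 6, 12 (1 of the 5 among them) without mouse 8 and 56 (4 of the 5) without mouse 7. Over the 138 lower genes this log2 difference between cages was above 0 in 115, against 50.9% of all tested genes, with a median of 1.06 against 0.02. These genes were called in the same 8 libraries and share the high marrow libraries of mice 5 and 6. Their number is therefore no separate test of cage.

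The 6 higher genes were of smaller size and most of them followed the colon library of mouse 8. Vmn1r89, a vomeronasal receptor, had 93.3, 121, 74.2 and 111 normalised CPM in colon of mice 5 to 8 and 8.43, 17.9, 23.2 and 22.3 in bone marrow (log2 fold change 2.37, SE 0.58, adjusted p = 0.0262). It rested on 1, 2, 5 and 4 counts in bone marrow. Slc30a4, a zinc exporter of vesicles, had 287, 813, 317 and 163 against 92.8, 62.6, 83.5 and 139 (1.78, SE 0.43, adjusted p = 0.0351). Tmem168, a membrane protein, had 86.1, 115, 83.2 and 753 against 25.3, 26.8, 55.7 and 66.8 (2.05, SE 0.47, adjusted p = 0.0157). In these 3 genes every colon library lay above every bone marrow library, as in 2.74% of all genes tested.

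Others overlapped between tissues. Tmed2, a cargo receptor of transport vesicles, had 74.1, 71.4, 49.4 and 262 in colon against 25.3, 8.94, 4.64 and 50.1 in bone marrow (log2 fold change 2.40, SE 0.57, adjusted p = 0.0227). Mouse 8 was the highest library of its tissue in colon and in bone marrow. ND3, a mitochondrially encoded subunit of complex I, was listed at 0 in both tissues of mice 5 and 7 and had 428 and 1629 normalised CPM in colon of mice 6 and 8 against 161 and 239 in bone marrow (2.12, SE 0.47, adjusted p = 0.0136). Without mouse 8, Vmn1r89, Tmem168 and Tmed2 were no longer called, ND3 no longer passed the filter, and Slc30a4 stayed at 2.38 (adjusted p = 0.000447). Without mouse 5 none of the 6 was called, and without mouse 6 only 1 was.

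**Figure D4:**
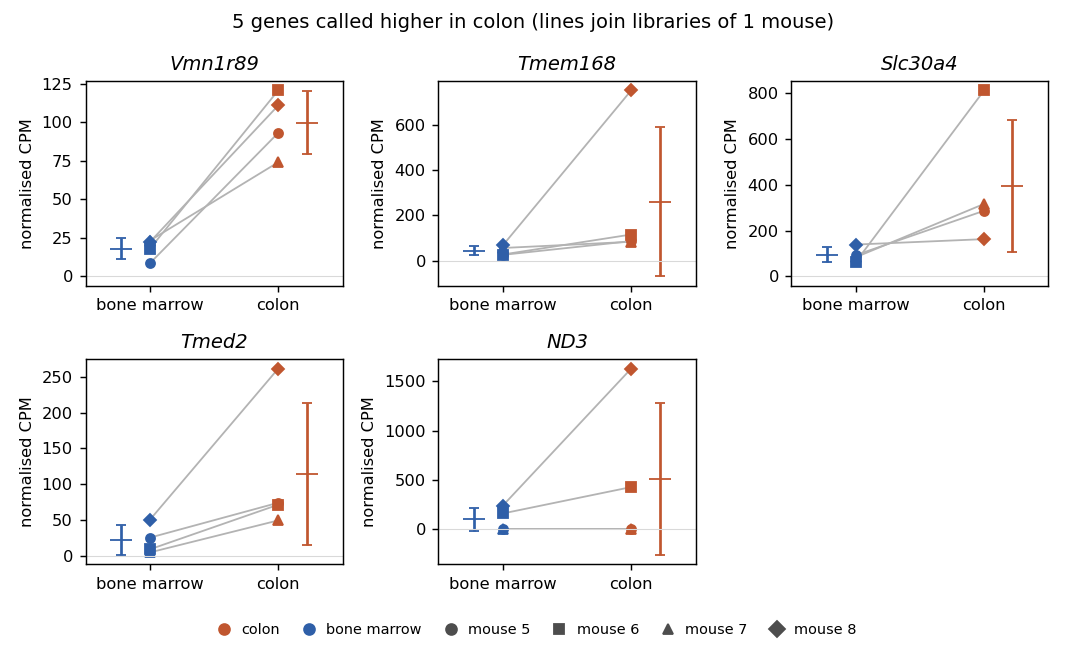
Normalised CPM of 5 genes called higher in colon, in bone marrow and colon of mice 5 to 8; points are libraries, grey lines join those of a mouse, and bars give the mean ± SD of 4 libraries. The colon library of mouse 8 is the highest point in the panels of Tmem168 at 753, Tmed2 at 262 and ND3 at 1629.

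The colon library of mouse 8 also held the most RNA of other kinds. Mitochondrially encoded genes took 7.52% of its counts (95% Wilson interval 7.45 to 7.58), against 0.369%, 1.003% and 0.297% in colon of mice 5, 6 and 7 and 0.307% to 0.645% in bone marrow. Genes of the colon epithelium, of which 27 of 27 had a count, summed to 7224 CPM of its total, against 643 to 829 in the other colon libraries and 496 to 758 in bone marrow. Pigr, which carries IgA across the epithelium, had 2132 counts there, 122, 3 and 28 in colon of mice 5, 6 and 7, and 0 to 6 in bone marrow. Krt18, Car1 and Reg3b had no count in any bone marrow library. Of these 27 genes 6 were tested and none was called, with a median log2 fold change of 0.19, and the part of this RNA in the higher genes was not tested. Nuclear genes of the respiratory chain summed to 4708 CPM in that library, against 414 to 462 in the other colon libraries and 343 to 462 in bone marrow.

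Of 10 tested mitochondrially encoded genes of the respiratory chain, 8 had a log2 fold change above 0, with a median of 0.57, and ND3 was the 1 called. Among all tested genes 0.0707% were called higher, and the median was 0.04. COX3, a subunit of cytochrome c oxidase, had 195, 222, 468 and 4100 counts in colon against 0, 0, 45 and 0 in bone marrow, which did not pass the test (adjusted p = 0.354). It was listed at 0 in 3 bone marrow libraries in which COX1, of the same enzyme, had 123 to 290 counts.

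Programmes that separate marrow from tissue cells were looked at by list. Of the granulocyte progenitor genes 3 were tested and none was called. Myb, a transcription factor of progenitors, was at 98.1 ± 23.1 normalised CPM in colon against 170 ± 55.1 in bone marrow and lower in colon in all 4 mice (log2 fold change -0.76, SE 0.35, adjusted p = 0.568), and Mpo, the myeloperoxidase of precursors, had 0 to 13 counts in any library. Of 10 tested proliferation genes 1 fell, Cenpc1, where 1.63% of all tested genes did. Mki67, Top2a and Cenpf were at -0.10 (SE 0.39), -0.82 (SE 0.44) and -0.22 (SE 0.30).

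Antigen presentation through class II had 5 tested genes and no call. Cd74, the invariant chain, had 12, 11, 24.7 and 81.4 normalised CPM in colon against 92.8, 393, 130 and 83.5 in bone marrow. All colon libraries were below those of bone marrow, if narrowly in mouse 8, and the log2 fold change of -2.32 (SE 0.62) came with an adjusted p of 0.0763. H2-Aa, H2-Ab1 and H2-Eb1, the class II chains, were at -0.93 (SE 0.50), -1.32 (SE 0.71) and -0.95 (SE 0.80), while Ciita, which controls them, was at 0.17 (SE 0.45). Cd74 holds no run above 13 bases.

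Other programmes of activation gave no call among their tested genes: NF-kB targets (7 tested), cytokines and growth factors (6), the aryl hydrocarbon receptor pathway (6), class I presentation (4), interferon response (5), heat shock and immediate early genes (7), apoptosis regulators (6), lipid mediators (6), matrix remodelling (6), and glycolysis and hypoxia (9). Their medians ran from -0.65 for class I to 0.30 for the aryl hydrocarbon receptor pathway, all of whose 6 genes were above 0. In simulated data the fit recovered 3 of 46 changes of log2 size 1, so the lack of a call leaves differences of that size undecided. Sod2, the mitochondrial superoxide dismutase and an NF-kB target, was at 280 ± 162 in colon against 103 ± 39.8 in bone marrow, with every colon library above every bone marrow library (log2 fold change 1.30, SE 0.41, adjusted p = 0.170). Such a separation was found in 2.74% of all genes tested. Of the 7 tested NF-kB targets, 5 were below 0 and 2 above, with a median of -0.31. Il1b, the interleukin-1 beta gene, was lower in colon in all 4 mice, with overlap between tissues (-1.91, SE 0.59, adjusted p = 0.157).

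Markers of other cells that either sample could hold were mostly sparse. Of neutrophil genes, S100a8 and S100a9 had 0 to 7 counts in any library, and the list summed to 70.2 to 173 CPM in colon against 69.9 to 332 in bone marrow. The haemoglobin genes Hbb-bs, Hbb-bt, Hba-a1 and Hba-a2 had 0 to 10 counts each. No tested gene of the lists for fibroblasts (4), smooth muscle (1), macrophages (1), dendritic cells (2), monocytes (3), erythroid cells (1), mast cells and basophils (1) or T and NK cells (1) was called, and no megakaryocyte gene was tested.

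The genes of highest level were partly shared. Levels here are not corrected for gene length. Nopchap1 has 123179 exonic bases and Kcnq1ot1 93092, against a median of 6505 over all tested genes. Nopchap1, a chaperone gene of small nucleolar particles, had 7478, 6608, 7233 and 7732 normalised CPM in colon against 8375, 7437, 7218 and 7887 in bone marrow (log2 fold change -0.09, SE 0.70). Slc38a6, an amino acid transporter, was at 4293 ± 187 and 4605 ± 527, Noct, a circadian phosphatase, at 2823 ± 239 and 2869 ± 153, and Kcnq1ot1, an imprinted noncoding RNA, at 1735 ± 253 and 1859 ± 105. The 10 genes of highest median level in bone marrow included Itgam, Trim12c, Ddx23, Tor1aip1, Cyp11a1 and Rsu1, all of them called lower in colon. Rsu1, a partner of integrin-linked kinase, had 112, 71.4, 137 and 126 in colon against 8797, 11861, 822 and 1236 in bone marrow (-4.82, SE 0.86, adjusted p = 0.00139).

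The esophagus libraries of the same 4 mice put these values in context. Itgam had 10, 15, 7 and 12 counts in esophagus of mice 5 to 8, beside 38, 4, 10 and 8 in colon against 3921, 3450, 2695 and 3238 in bone marrow. Trim12c had 27, 12, 11 and 17 and Ddx23 6, 0, 13 and 10 counts in esophagus. These raw counts are not scaled for depth, which differed between libraries. Scaled in a fit of colon and esophagus, Itgam had a mean of 99.8 normalised CPM in esophagus against 46.9 in colon. Its log2 fold change, colon minus esophagus, was -1.28 (SE 1.02). Trim12c was at 174 against 113 (-0.61, SE 0.68) and Ddx23 at 63.5 against 69.0 (0.30, SE 1.20). Between colon and esophagus, paired by mouse, none of 7267 tested genes was called by edgeR (0.0%), the smallest adjusted p was 0.115, and 109 were higher and 39 lower in colon at an unadjusted p under 0.05. Of the 138 genes 83 were tested there, 1 of them at an unadjusted p under 0.05, and their median log2 fold change was 0.32 against 0.36 for all tested. The comparison shares its colon libraries with the one against bone marrow, and no other tool was run on it.

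As a check on the libraries themselves, 6 measures were compared by an exact two-sided sign-flip permutation test over the 4 mice, whose smallest possible p is 0.125. Colon libraries detected 23845 ± 1457 genes (SD, n = 4 mice) and bone marrow libraries 20821 ± 1405, more in 4 of 4 mice (exact p = 0.125). At the depth of the smallest library these were 22127 ± 1180 and 20435 ± 1008 (exact permutation p = 0.25). The 100 most abundant genes took 7.96% ± 4.36 of the counts in colon against 16.3% ± 7.17 in bone marrow (exact permutation p = 0.25). Rn18s, the ribosomal RNA, took 0.226% ± 0.0384 and 0.419% ± 0.0867, lower in colon in 4 of 4 mice (exact p = 0.125). Mitochondrial shares were 2.30% ± 3.49 and 0.464% ± 0.157 (exact p = 0.375), and ribosomal protein shares 0.451% ± 0.552 and 0.222% ± 0.0222 (exact p = 1.0), with colon of mouse 8 the highest library for both. After Benjamini-Hochberg adjustment over the 6 measures no p was under 0.375. The design cannot reach 0.05 for such measures.

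**Figure D5:**
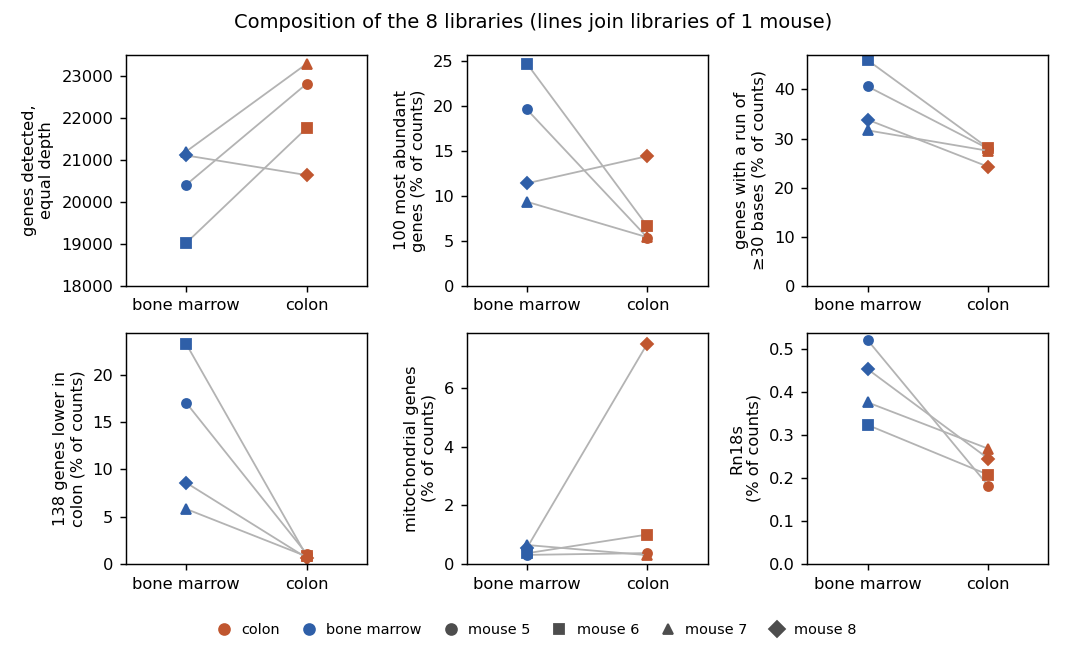
Composition of the 8 libraries in bone marrow and colon of mice 5 to 8: genes detected at equal depth (an axis that does not start at 0), and the percentage of counts in the 100 most abundant genes, in genes with a run of at least 30 bases, in the 138 genes lower in colon, in mitochondrial genes and in Rn18s; grey lines join the libraries of a mouse. The 138 genes lie at 5.82% to 23.3% in bone marrow and at 0.648% to 1.08% in colon, and mitochondrial genes reach 7.52% in colon of mouse 8.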

How the data were processed

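RNA sequencing of 8 libraries was analysed, with the esophagus libraries of the same mice beside them. The authors deposited 1 table of raw counts per gene; its values are whole numbers, and all 26366 rows name a gene. Per the submitters' processing notes, limma 3.50.3 was among the tools; for aligner, counting tool, strand handling, annotation and build, nothing is stated (not given in the sources used here). No coordinates are therefore printed. Reads shared by paralogs, pseudogenes or overlapping genes may have been divided among them, and 32 symbols belong to more than 1 gene. By identifier, 26299 genes (99.75%) matched GENCODE M21 (GRCm38), which gave gene class, chromosome, exonic length and transcript sequence.

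Groups came from tissue and mouse in the labels. Genes were kept by filterByExpr (minimum count 10, total 15), scaled by TMM and fitted with edgeR 4.0.16 in R 4.3.3 (quasi-likelihood, robust, mouse plus tissue, 3 residual degrees of freedom, common biological coefficient of variation 0.383). A gene was called where its p, adjusted by Benjamini and Hochberg's method, was under 0.05. SEs come from the F statistic. Normalised CPM is relative to the TMM-scaled counts of tested genes; summed list levels are CPM of the library total. The cage test added a tissue by cage term. limma 3.58.1 (voom) and DESeq2 1.42.0 served as alternatives, and Python 3.11.15 for the rest. The fit was tested on simulated data in which all genes had the common dispersion. It recovered 3 of 46 changes of log2 size 1, 32 of 48 of size 2, and 50 of 50 each of sizes 4 and 6. Unchanged genes made up 2.88% of its calls. Intervals and limits from 3 counts cover counting error only: reads made by amplification do not each stand for a molecule.

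The mice pair the libraries by the labels. Deviations from tissue means correlated at -0.0184 to 0.0383 between the 2 libraries of a mouse. Between a colon and a bone marrow library of different mice they correlated at -0.0764 to 0.0738.

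Named genes were, in each direction, the 15 called genes of largest fold change with the same sign in 4 mice and no overlap of tissues, leaving out predicted names (12 of the 133 lower genes that met this). To these were added the 5 of smallest p where fewer than 5 qualified, the 10 of highest median level in each tissue, up to 4 of highest level per list and the eosinophil lists. Called genes without a run, genes of the cage test, and Icam1, Selplg, Cd44, H2-Eb1, Il1b, Pigr and other members named for their counts were chosen after their values were seen. The genes, lists and tests were chosen with earlier results of these data known. Some named genes and sequences are not reported here. Ear10, Elane and Ctsg were among 15 list members not analysed here.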

Additional observations from a re-analysis of the deposited data

Results flagged for a closer look

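Within 64 groups of 4 libraries, 10 held a library far from the other 3, where chance gives about 1 in 20. In colon of mouse 8 these were the share of counts in the 100 most abundant genes (14.4%), in mitochondrial genes (7.52%), in ribosomal protein genes (1.28%) and, as a low value, in genes with a run of 30 bases (24.3%). The same library was far above the others for Tmem168 (753 normalised CPM) and Tmed2 (262). Colon of mouse 5 was far above the other colon libraries for Itgam (90.9 normalised CPM), Trim12c (218) and Rhox8 (47.8), and colon of mouse 7 for Sh3bgr (11.2), which rests on 5 counts.

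The signed log2 fold change, colon minus bone marrow, was higher in cage 2 than in cage 1 for Eef1a1, Acat1, P4ha2 and Eml5 by edgeR's test of tissue by cage. The excess was 5.34 for Eef1a1, 4.39 for Acat1, 3.34 for P4ha2 and 3.16 for Eml5. P4ha2 and Eml5 were lower in colon in both cages and fell less in cage 2. Each cage holds 2 mice.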

How the results depend on the processing

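The 138 lower and 6 higher genes were the same genes with RLE size factors. Scaling by library size alone moved the median of all tested genes from 0.04 to 0.28 (log2) and gave 118 lower genes (113 of the 138) and 13 higher. Without the filter on low counts there were 160 lower and 62 higher, with limma voom and quality weights 187 and 19, with DESeq2 148 (132 of the 138) and 6 (3 of the 6), and at a minimum count of 30 there were 106 (96 of the 138) and 9 (0 of the 6). With limma voom and mouse as a random effect there were 43 and 0, without the mouse block 136 and 3. A fit of all 15 libraries gave 45 and 0, or 79 and 1 with the mouse block. Leaving out genes with a run of 30 bases gave 2 and 0, and with a run of 20 bases 0 and 0, in smaller tables that no longer held the run genes. Leaving out each mouse gave 87 to 162 lower and 0 to 18 higher genes. The cause of the other changes, and of calls lost by genes kept in the smaller tables, was not tested.

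The tissue by cage test called 2 genes by library size alone, 3 by DESeq2, 3 without genes that hold a run of 30 bases, and 0 to 56 when a mouse was left out, where the lone mouse of a cage is assumed to vary like the others. Taken without pairing, the difference of 3024.5 in genes detected and of -0.193 percentage points in Rn18s each had an exact permutation p of 0.0286. The difference in ribosomal protein share ran from -0.0547 percentage points without mouse 8, where it turned, to 0.330 without mouse 5. Of 469 values of called genes named in the text under another setting, 348 kept direction and call, 120 lost the call and 1 turned, ND3 at -0.57 with mouse as a random block (adjusted p = 0.992). Depth limits what could be tested to 8491 of 26313 genes with a count.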
